A study of Rattus norvegicus with 11 samples.

Results

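The genes described here make up the hepatic glucocorticoid pathway, from the enzymes that set the local hormone supply to the receptor, its cochaperones and its direct targets, in livers of control rats and of rats given mequindox. The 10 genes were chosen by name: Hsd11b1, Hsd11b2, H6pd, Nr3c1, Fkbp4, Fkbp5, Tat, Tsc22d3, Serpina6 and Dusp1. They are 10 of the 14217 genes that had a probe set with a single symbol on the array, and 13 of its 31099 probe sets carried 1 of these symbols. The measured value used in choosing was the mean signal over the 11 arrays, which picked the brightest probe set of each gene as its representative. All 10 representatives and 12 of the 13 probe sets passed the filter on dim signal, which left 10714 genes.

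Liver RNA came from 11 Wistar rats, 1 Affymetrix array per animal, to ask what mequindox, a quinoxaline N-oxide antibacterial for animals, does to expression in liver. The group labelled control held 3 animals (numbers 1, 2 and 9, at week 9 of age). The high-dosed group held 8 animals (numbers 2, 3, 4, 5, 6, 8, 10 and 11), all of week 9 except animal 8, of week 10. The labels name no genotype beyond the strain, and the mass dosed, how long dosing went on, the animals' sex and the time of day of sampling are not stated in them. The series' design text states that the 2 groups were picked for arrays by a principal component score of aqueous liver extracts and by clinical chemistry. In whole liver, fewer cells of a type and less RNA per cell cannot be told apart.

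Glucocorticoids are steroid hormones of the adrenal cortex that circulate bound to a carrier protein made in the liver. Inside a hepatocyte, 11-beta-hydroxysteroid dehydrogenase type 1 turns inert 11-keto steroid back into active hormone, using NADPH made in the lumen of the endoplasmic reticulum, and the type 2 enzyme runs the opposite reaction. The glucocorticoid receptor is held in a complex with the chaperone Hsp90 and its cochaperones. Bound by hormone, the receptor enters the nucleus and switches target genes on or off. Liver targets of the receptor are known for amino acid breakdown and glucose production.

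Median signal by array lay between 149 and 187, and between 162 and 176 in the controls, inside that range. The ratio of the 3' to the 5' control probe set was 1.99 to 2.74 for beta-actin and 1.18 to 1.32 for Gapdh, with the controls inside both ranges. Of the 10714 genes tested, 1141 differed between the groups, which is 10.6%. In the high-dosed group 847 genes were higher (7.91%) and 294 lower (2.74%) (limma, Benjamini-Hochberg adjusted p below 0.05). Higher genes made up 74.2% of the calls as deposited and 63.8% after quantile normalization. The groups did not overlap for 12.1% of genes, 8.69% with the high-dosed animals above and 3.37% with them below. The summed signal of 8 hepatocyte markers was 144078 to 147601 in controls and 144793 to 152174 in high-dosed animals. Of the 8, Apoa1 rose (0.35, limma adjusted p = 0.0153), Asgr1 fell (-0.18, limma adjusted p = 0.0242) and 6 did not pass. Both were singled out once their values were known, and neither was called without control 1 (adjusted p = 0.0737 and 0.156).

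Of the 10 genes, 1 rose (Hsd11b1), 2 fell (Hsd11b2 and Fkbp4) and 7 did not pass, so that 30% were called against 10.6% of all genes tested. In 2 of the 10, Hsd11b2 and Fkbp4, every high-dosed animal lay below every control, and in none above, beside 3.37% and 8.69% of all genes. Their median log2 fold change was 0.039, beside 0.017 over all genes. The genes were put together with earlier results of these data known, the fall of Hsd11b2 among them, so this share is a description and no support for a change of the pathway. Values below are intensities as deposited, a brightness without a fixed unit. Fold changes are high-dosed over control on the scale log2(intensity + 55.26), so changes of dim genes come out too small.

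**Figure D1:**
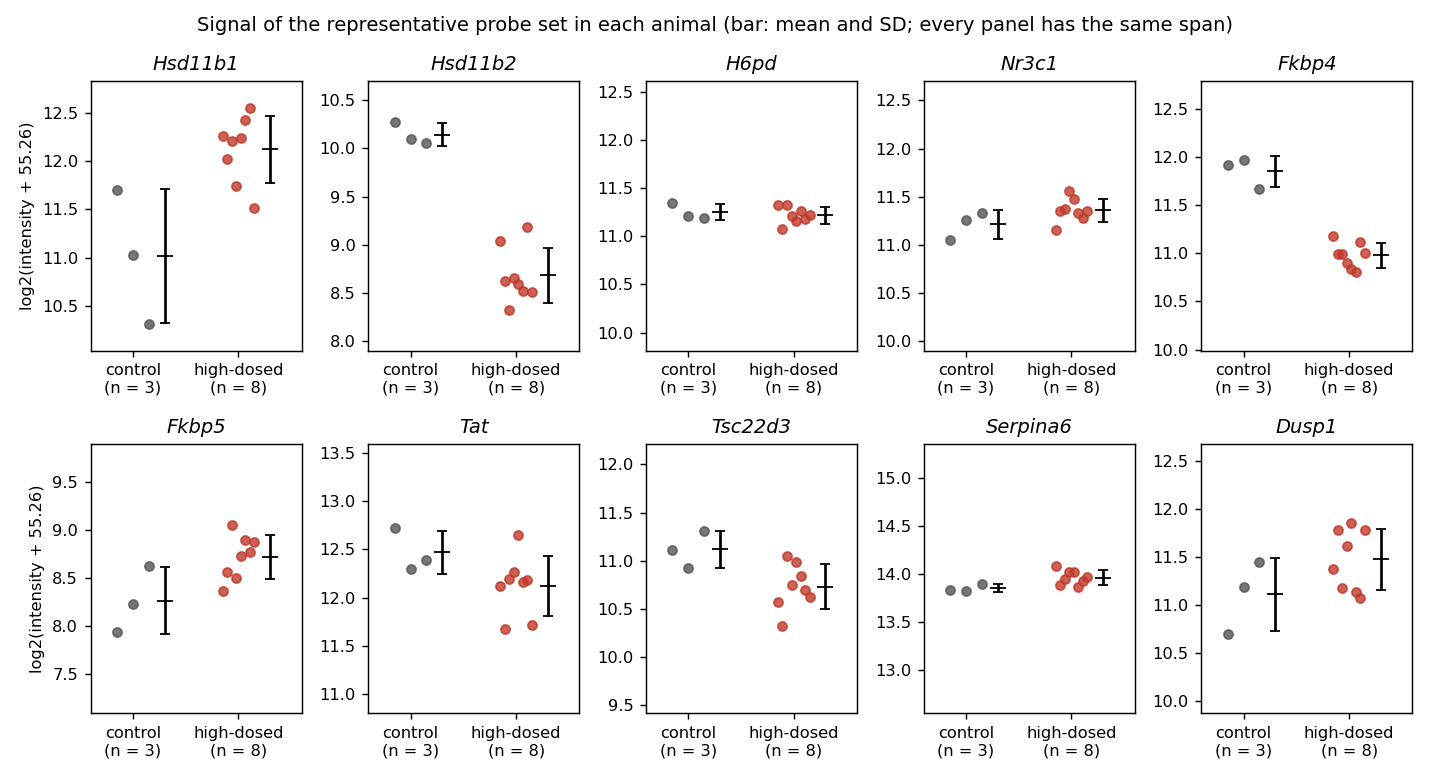
Signal of each gene's representative probe set on the scale log2(intensity + 55.26), 1 point per animal in order of animal number, for 3 control and 8 high-dosed animals, with the mean and SD beside the points. Hsd11b2 and Fkbp4 are the panels in which all 8 high-dosed animals lie below all 3 controls, and the controls of Hsd11b1 spread more widely (SD 0.69) than the high-dosed animals (SD 0.35).

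Hsd11b2, which encodes the type 2 enzyme that inactivates glucocorticoids, was lower in every high-dosed animal than in any control. Its intensity was 1188 in control 1, 1039 in control 2 and 1009 in control 9. In the high-dosed animals the lowest was 264 (animal 4), the median 336 and the highest 527 (animal 10). The controls thus lay close together, and even the highest high-dosed animal stood well under the lowest control. The log2 fold change was -1.46 ± 0.16 (SE, 3 control and 8 high-dosed animals, 95% confidence interval -1.80 to -1.12, limma adjusted p = 0.000339), a level 2.76-fold lower. It stayed between -1.53 and -1.39 whichever animal was left out. The probe set ranked at the 73rd percentile of mean signal among probe sets, a moderate signal for an enzyme known mainly from kidney and other mineralocorticoid target tissues. Kidney tubule markers were low in both groups: 4 of 6 fell under the filter, and the summed intensity of the 6 was 383 to 519 in controls and 306 to 519 in high-dosed animals.

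Hsd11b1, which encodes the type 1 enzyme that regenerates active hormone and is abundant in hepatocytes, was higher in the high-dosed group. Its intensity was 3277 in control 1, 2030.3 in control 2 and 1216 in control 9. In the high-dosed animals it ran from 2866 (animal 11) through a median of 4732 to 5956 (animal 10). Control 1 lay above high-dosed animal 11, so the groups overlapped. On the log2 scale the 3 controls spread more widely (SD 0.69) than the high-dosed animals (SD 0.35). The log2 fold change was 1.11 ± 0.26 (SE, 95% confidence interval 0.55 to 1.66, limma adjusted p = 0.0183), or 2.16-fold. The size rested on the controls: leaving out control 9 gave 0.76 (adjusted p = 0.0812), leaving out control 2 gave 1.12 (adjusted p = 0.0535), neither called, and leaving out control 1 gave 1.45 (adjusted p = 0.0108). Animal 10 had the highest signal of the high-dosed group for both dehydrogenase genes.

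H6pd encodes the hexose-6-phosphate dehydrogenase that makes the NADPH for the type 1 enzyme. Its intensity was 2285 to 2554 in controls and 2102 to 2514 in high-dosed animals, with medians of 2319 in both groups. The log2 fold change was -0.032 ± 0.063 (95% confidence interval -0.17 to 0.10, limma adjusted p = 0.785), so an increase of the size seen for Hsd11b1 lay outside the interval. Its sign turned without control 1 (0.017). Of the 7 tested genes on a list of glucose-6-phosphate and NADPH supply, 1 rose (14.3%, beside 7.91% of all genes), 0 fell and 6 did not pass, and the list's median log2 fold change was 0.055. A single call of 7 is near the share over all genes. The riser was Slc37a4, the transporter that carries glucose-6-phosphate, the substrate of the H6pd enzyme, into the endoplasmic reticulum. Its intensity was 4042 to 4686 in controls and 5465 to 7234 in high-dosed animals. The groups did not overlap, and the log2 fold change was 0.54 ± 0.074 (limma adjusted p = 0.00139), which was called under all 20 alternative settings.

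Serpina6 encodes corticosteroid-binding globulin, the plasma carrier of the hormone. Its signal was among the brightest on the array, at the 99.7th percentile. It was 14594 in control 1, 14445 in control 2 and 15234 in control 9, against 14829 to 17301 (median 15844) in high-dosed animals. The groups overlapped, and the difference of 0.11 ± 0.044 on the log2 scale did not pass (95% confidence interval 0.014 to 0.21, limma adjusted p = 0.139). A list of other plasma proteins held mostly carriers of hormones or small molecules, and also Serpina1, a protease inhibitor. Among its 7 tested genes, 0 rose, 1 fell and 6 did not pass, with a median of -0.0096. That is 14.3% called, near the 10.6% of all genes, or 14.3% lower beside 2.74%, a share that rests on 1 gene. In 2 of the 7, Orm1 and Serpina1, every high-dosed animal lay below every control, beside 3.37% of all genes. The gene that fell was Orm1, orosomucoid (-0.29 ± 0.053, limma adjusted p = 0.0062), which stood in the list of receptor targets as well.

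Nr3c1 encodes the glucocorticoid receptor itself. Its intensity was 2059 in control 1, 2390 in control 2 and 2525 in control 9, and 2217 to 2956 (median 2559) in high-dosed animals. Controls 2 and 9 lay inside the high-dosed range, and the log2 fold change of 0.15 ± 0.082 did not pass (95% confidence interval -0.031 to 0.33, limma adjusted p = 0.294). The dimmer probe set of Nr3c1, with intensities of 76.9 to 115, lay under the filter and was not tested. The mineralocorticoid receptor gene Nr3c2, which shares ligands with Nr3c1, did not pass either (0.090 ± 0.071, limma adjusted p = 0.472). Of 4 tested genes on its list 0 rose and 0 fell, beside 10.6% of all genes called. A count of 0 in 4 is near that share, and 4 more genes of the list lay under the filter.

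The cochaperone Fkbp4 is an immunophilin of the receptor's Hsp90 complex that favours hormone binding and transport to the nucleus, and it fell. Its intensity was 3808 in control 1, 3953 in control 2 and 3197 in control 9. In the high-dosed animals it ran from 1735 (animal 8) through a median of 1984 to 2260.3 (animal 2). The groups were far apart, with the highest high-dosed animal well under control 9. The log2 fold change was -0.87 ± 0.087 (SE, 95% confidence interval -1.06 to -0.69, limma adjusted p = 0.000313), or 1.83-fold lower, and it lay between -0.96 and -0.81 whichever animal was left out.

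Fkbp5, the related immunophilin that holds the receptor in a state of low affinity for hormone and is itself a receptor target, was measured by 2 probe sets that gave nearly the same difference. In the brighter one the intensity was 189 in control 1, 245 in control 2 and 340.3 in control 9, against 275 to 476 (median 374) in high-dosed animals. Control 9 lay inside the high-dosed range, and the log2 fold change of 0.45 ± 0.16 did not pass (95% confidence interval 0.12 to 0.79, limma adjusted p = 0.0832). In the dimmer one it was 115 in control 1, 125 in control 2 and 112 in control 9, against 148 to 233 (median 181). There the groups did not overlap, and the difference of 0.46 ± 0.098 was called among the 18625 probe sets tested (95% confidence interval 0.25 to 0.67, limma adjusted p = 0.0158, where 6.92% of probe sets were called). The brighter probe set was called when control 9 was left out (0.64, adjusted p = 0.0351), when high-dosed animal 2 was left out (0.50, adjusted p = 0.0453) and with the animal number as a covariate (0.44, adjusted p = 0.0429). Leaving out control 1 gave 0.29 (adjusted p = 0.423).

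**Figure D2:**
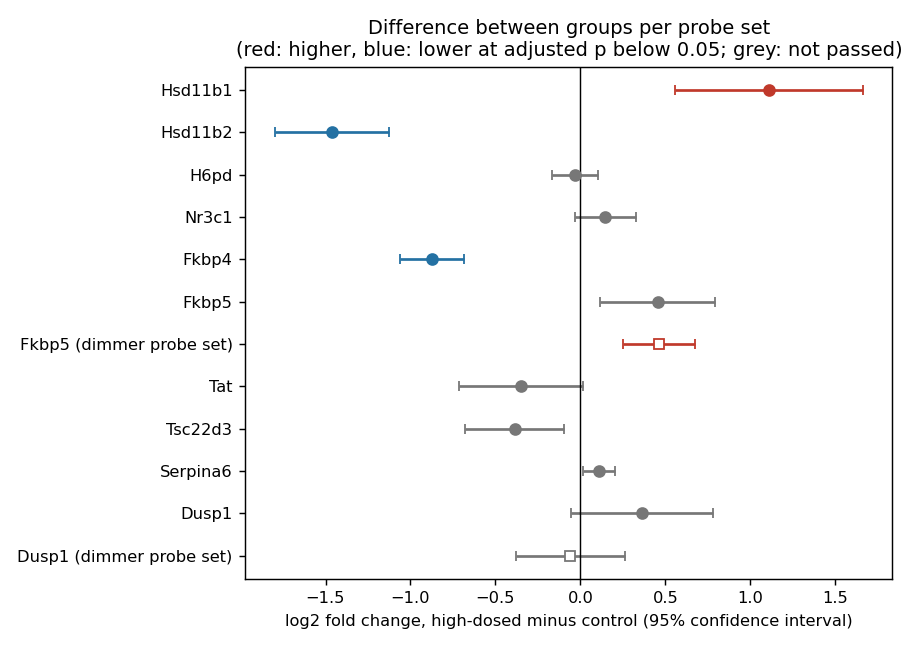
Log2 fold change, high-dosed minus control, with its 95% confidence interval, for the 12 tested probe sets of the 10 genes; filled points are representatives and open squares the dimmer probe sets of Fkbp5 and Dusp1. Hsd11b2 (-1.46) and Fkbp4 (-0.87) lie left of 0 and Hsd11b1 (1.11) right of it, while the intervals of H6pd, Nr3c1, Tat and both Dusp1 probe sets include 0.

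The 250 bases before the RefSeq transcription start are shown for both immunophilin genes, because their differences between the groups had opposite signs, with Fkbp5 called by its dimmer probe set alone. They come from the GRCr8 assembly, the minus strand of chr4:163397919-163398168 for Fkbp4 and of chr20:6543556-6543805 for Fkbp5, written 5′ to 3′ with motif matches in capitals.
Fkbp4: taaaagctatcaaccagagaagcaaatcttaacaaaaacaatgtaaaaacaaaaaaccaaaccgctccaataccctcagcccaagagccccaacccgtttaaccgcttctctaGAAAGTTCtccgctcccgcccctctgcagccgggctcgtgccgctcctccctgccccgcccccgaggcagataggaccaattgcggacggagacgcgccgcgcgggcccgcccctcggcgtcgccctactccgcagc
Fkbp5: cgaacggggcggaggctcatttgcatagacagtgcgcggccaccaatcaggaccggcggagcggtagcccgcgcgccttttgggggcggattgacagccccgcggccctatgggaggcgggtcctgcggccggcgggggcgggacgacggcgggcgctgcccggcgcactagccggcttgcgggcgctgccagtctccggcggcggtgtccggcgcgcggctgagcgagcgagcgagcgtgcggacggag
Motifs were searched on both strands of 33469 such windows of the rat. The capitals in Fkbp4 are a match to GAANNTTC, a form of the heat shock element, from 137 to 130 bases before the start, and 7.23% of all windows hold one. Its other form, TTCNNGAA, was in 7.48% of windows and in none of these genes. In total 7 of the 10 genes had at least 1 window, 10 windows in all: Fkbp4, Fkbp5, H6pd, Dusp1, Nr3c1, Tat and Tsc22d3. The palindromic glucocorticoid response element, searched as AGAACA and TGTTCT with any 3 bases between, was in none of these 10 windows and in 0.012% of all windows. The single hexamer AGAACA, which the full element contains, was in none of the 10 and in 17.5% of all. Dusp1 held the cAMP response element TGACGTCA, from 124 to 117 bases before its start (1.59% of all windows), and the E-box CACGTG, from 107 to 102 bases before it (5.59%). A match is a string of letters and not a measured binding site. For a string as rare as the full element, its absence from 10 windows carries little information. Bases outside these 250 were not searched.

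The other genes of the receptor's chaperone cycle are those that load and release hormone receptors on Hsp90. Of 15 tested, 0 rose, 4 fell (26.7%, against 2.74% of all genes) and 11 did not pass, with a list median of -0.012 beside 0.017 over all genes. The falls were small. Stip1, the adaptor that joins Hsp70 to Hsp90, had intensities of 2433 to 2715 in controls and 1609 to 2198 in high-dosed animals (-0.41 ± 0.088, limma adjusted p = 0.0132). Hsp90ab1, the constitutive Hsp90 itself, went from 8161 to 8715 in controls to 6533 to 8068 in high-dosed animals (-0.24 ± 0.060, limma adjusted p = 0.0238). The nucleotide exchange factor Hspa4 (-0.29 ± 0.063) and Ahsa1, the activator of the Hsp90 ATPase (-0.27 ± 0.069), completed the group (limma adjusted p = 0.0135 and 0.0296). The dimmer probe set of Hsp90ab1 had -0.35 and did not pass (limma adjusted p = 0.0636). Of the 15 tested, 5 had every high-dosed animal below every control, beside 3.37% of all genes. They were the 4 called genes and Ppid, which was singled out once its value was known and did not pass (limma adjusted p = 0.0517). None of the 4 called genes kept its call without control 1 (adjusted p from 0.0808 to 0.16), nor without high-dosed animals 8, 10 and 11 (adjusted p from 0.0526 to 0.0969). The list had 2 lower genes without control 2, 3 without control 9, and 4 or 5 without any 1 high-dosed animal. The list was drawn up with earlier results of these data known.

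Coregulators are the proteins through which the bound receptor activates or represses transcription. Of 17 tested, 1 rose, 0 fell and 16 did not pass, so that 5.88% were called, a smaller share than the 10.6% of all genes, with a median of -0.020. The corepressor deacetylase Hdac3 rose (0.24 ± 0.060, limma adjusted p = 0.0234), but it was not called without control 1 or 2 or after quantile normalization (adjusted p = 0.121, 0.0631 and 0.0596).

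Tat, Tsc22d3 and Dusp1 are widely used read-outs of receptor activity, and none of the 3 passed. Tat, the aminotransferase that starts tyrosine breakdown in liver, had intensities of 6687 in control 1, 4974 in control 2 and 5311 in control 9. Its high-dosed animals ran from 3214 (animal 3) through a median of 4560.0 to 6386 (animal 6), so they overlapped the controls. The log2 fold change was -0.35 ± 0.17 (95% confidence interval -0.71 to 0.018, limma adjusted p = 0.218).

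Tsc22d3, also known as GILZ, a leucine zipper protein through which glucocorticoids curb inflammation, stood at 2159 in control 1, 1893 in control 2 and 2488 in control 9. Its high-dosed animals ran from 1221 (animal 3) through a median of 1639 to 2065 (animal 4), and 2 of the 8 lay above control 2. The log2 fold change was -0.39 ± 0.14 (95% confidence interval -0.68 to -0.096, limma adjusted p = 0.0865), and it was not called in any of the 20 alternative settings (adjusted p from 0.0558 to 0.285).

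Dusp1, a phosphatase that switches off MAP kinases, had 2 probe sets of opposite sign. The brighter stood at 1607 in control 1, 2277 in control 2 and 2744 in control 9, and at 2099 to 3644 (median 2840.1) in high-dosed animals (0.36 ± 0.19, 95% confidence interval -0.057 to 0.78, limma adjusted p = 0.27). The dimmer ran from 283 to 340 in controls and from 241 to 462 in high-dosed animals (-0.060 ± 0.15, limma adjusted p = 0.846). The groups overlapped in both, and no direction can be given for Dusp1.

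The wider set of receptor targets went both ways. Of 38 tested, 5 rose, 5 fell and 28 did not pass, so 26.3% were called against 10.6% of all genes, and the list median was -0.016. The list rests on textbook knowledge and was drawn up with earlier results known. The genes that rose included Sds, the serine dehydratase of amino acid breakdown, with intensities of 460 to 1170.3 in controls and 1823 to 5982 in high-dosed animals (2.13 ± 0.36, limma adjusted p = 0.00394). Mt2A, a metallothionein that binds zinc and copper, had 5033 to 8867 in controls and 11312 to 15792 in high-dosed animals (1.07 ± 0.14, limma adjusted p = 0.00119). Ppargc1a, a coactivator of gluconeogenic genes, had 112 to 182 and 265 to 489 (0.99 ± 0.14, limma adjusted p = 0.00182). Of the 38 targets, 9 separated the groups without overlap, these 3 among them. In 5 the high-dosed animals lay above and in 4 below, beside 8.69% and 3.37% of all genes. Mt1, another metallothionein on the list, was singled out once its value was known. Its groups overlapped and it did not pass (0.010 ± 0.14, limma adjusted p = 0.972). Sgk1, a kinase that regulates ion transport, rose as well (0.43 ± 0.10, limma adjusted p = 0.0183), though not without control 1 (0.30, adjusted p = 0.121).

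The targets that fell included Pdk4, the kinase that blocks pyruvate oxidation, with intensities of 5869 to 6470.1 in controls and 3034 to 4881 in high-dosed animals (-0.68 ± 0.12, limma adjusted p = 0.00544), and Orm1, given above. The dimmer probe set of Pdk4 had -0.52 and did not pass (limma adjusted p = 0.105). Per1, a clock repressor with a receptor element in its promoter, had 387 to 450.3 in controls and 227 to 412 in high-dosed animals (-0.47 ± 0.14, limma adjusted p = 0.0465). The groups overlapped for Per1, and its call was lost in 12 of the 20 alternative settings (highest adjusted p = 0.165). The remaining called targets fall outside the rule for naming and were singled out once their values were known: A2m (1.53), a protease inhibitor, rose, and Cdkn1a (-1.49), a cell cycle inhibitor, and Tgm2 (-0.27), a transglutaminase, fell. Cdkn1a was not called without control 1 or 9 (adjusted p = 0.0588 and 0.0513), nor Tgm2 without control 1 or 2 (adjusted p = 0.0657 and 0.0954) or by its dimmer probe set (-0.16, adjusted p = 0.377). Without control 1 the list had 4 higher and 2 lower, and without control 9 it had 5 and 3. The classical gluconeogenic and amino acid targets Pck1, Tdo2 and Cps1 were on the list and, singled out likewise, did not pass (limma adjusted p = 0.905, 0.988 and 0.197).

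**Figure D3:**
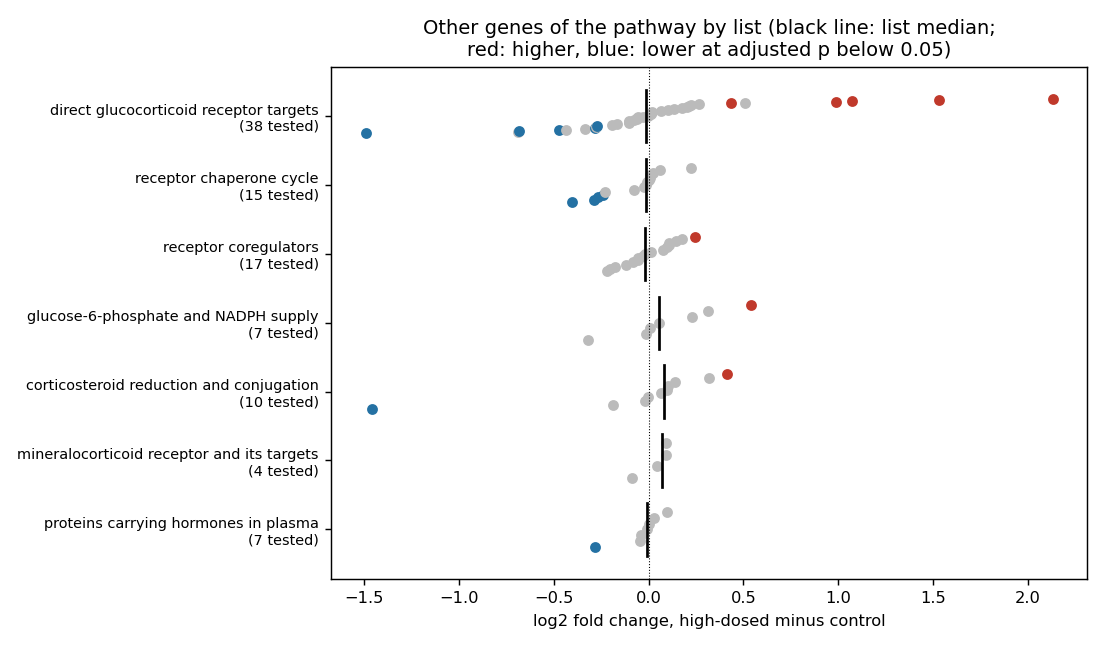
Log2 fold change, high-dosed minus control, of each tested gene in 7 lists of the pathway, with red points called higher, blue points called lower, grey points not passed and a black line at the list median. The 38 receptor targets spread to both sides (5 called higher and 5 called lower). The 15 genes of the chaperone cycle lie on both sides too (6 above 0 and 9 below), with its 4 called genes all left of 0.

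Among enzymes that reduce or conjugate corticosteroids, 10 were tested, of which 1 rose, 1 fell and 8 did not pass, with a median of 0.083. The called share of 20% compares with 10.6% of all genes and rests on 2 genes. Cyp3a9, a cytochrome of a family that hydroxylates steroids, had 9609 to 13022 in controls and 2849 to 6715 in high-dosed animals (-1.46 ± 0.25, limma adjusted p = 0.00408). Ugt2b1, a glucuronosyltransferase, had 6702 to 7945 in controls and 8599 to 11722 in high-dosed animals (0.41 ± 0.10, limma adjusted p = 0.0222), though it was not called without control 1 or 2 (adjusted p = 0.0624 and 0.101).

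Some markers of other liver cells and genes of the circadian clock differed between the groups, beside 7.91% of all genes called higher. The summed intensity of 7 endothelial markers was 10026 to 11159 in controls and 11445 to 12582 in high-dosed animals, and 3 of the 7 tested rose (Emcn 0.55, Pecam1 0.60, Stab2 0.40), with 0 lower. Lyve1 did not pass, with -0.12 in its brighter and 0.21 in its dimmer probe set. Without control 1 only Emcn of the 3 risers was called. That of 9 macrophage markers was 20278 to 27039 and 26214 to 35351, and 1 of 9 rose (Mrc1, 0.31), which was lost in 14 of the 20 settings. That of 5 bile duct markers was 717 to 871 and 1064 to 1746, where 3 of the 5 lay under the filter and Epcam (0.83) rose of the 2 tested. Much of this sum was Epcam alone, with 410 to 512 in controls and 665 to 1265 in high-dosed animals. Spp1, the other tested marker, did not pass (0.18, limma adjusted p = 0.362). None of 7 stellate cell, 3 erythroid or 2 T, B or NK cell markers tested was called in either direction (limma, lowest adjusted p = 0.11). The clock genes Nr1d1 (2.19 ± 0.15, limma adjusted p = 2.09e-05) and Dbp (2.81 ± 0.56, limma adjusted p = 0.00861) rose. All marker and clock genes named in this paragraph, Lyve1 among them, were singled out once their values were known. The lowest value in the deposited table was 1, so no marker could stand at 0, and presence or absence of a marker was not tested. The part of these cell types and of the clock in the values of the 10 genes was not tested.

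Across the 8 high-dosed animals no pair of the 10 genes passed a test of correlation. Of 45 pairs 0 passed after adjustment, with 2 at an unadjusted p below 0.05 for Pearson's r and 2 for Spearman's rho (exact two-sided permutation tests over all 40320 pairings, lowest adjusted p = 0.741 and 0.729). The strongest pair was Tat and Tsc22d3, with r = 0.76 (exact p = 0.028) and rho = 0.81 (exact p = 0.0218). Without animals 3 and 6, the farthest from the median of Tat, r was 0.44 (exact p = 0.349, 6 animals, over a narrower range of Tat). Nr3c1 and Fkbp4 had r = -0.72 (exact p = 0.0419) and rho = -0.62 (exact p = 0.115), and r = -0.57 without animals 5 and 2. The other pair below 0.05 by rank was Hsd11b2 and Fkbp5, with rho = -0.74 (exact p = 0.0458) and r = -0.57 (exact p = 0.14). Without animals 10 and 2, the farthest from the median of Hsd11b2, its r was -0.93 (exact p = 0.00278, 6 animals, not adjusted). Hsd11b1 and Dusp1, the third by size of r but below 0.05 by neither measure, had r = -0.70 (exact p = 0.0598) and rho = -0.69 (exact p = 0.0694), and r = -0.74 without animals 11 and 5.

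For the 3 genes with the largest differences, the genes most like them over the 8 high-dosed animals were found by Pearson's r among the 10713 others tested. They were Pltp (r = 0.96) and Bicra (0.95) for Hsd11b2, Pak1 (0.93) and Phkg2 (0.92) for Hsd11b1, and Cyp3a9 (0.98) and Zgpat (0.96) for Fkbp4. With 8 animals such values are common, since the median over all genes of their own highest r was 0.97. Hsd11b1 stood low in that respect, with a highest r at the 2.87th percentile of all genes. Of these 6 genes Cyp3a9 alone was called between the groups, lower like Fkbp4.

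**Figure D4:**
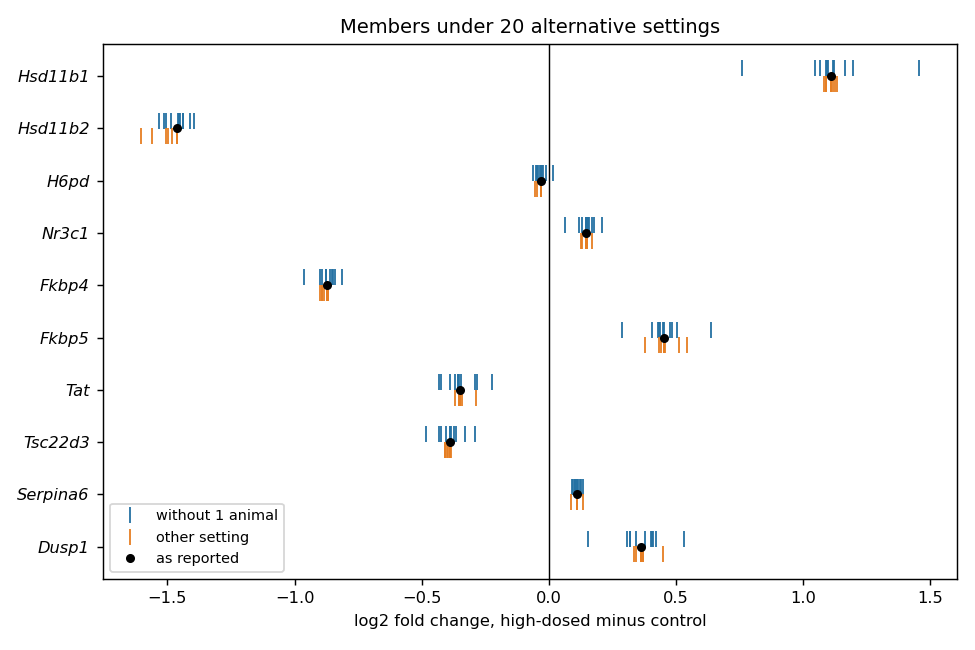
Log2 fold change of the 10 genes as reported (black points), without each of the 11 animals in turn (blue ticks) and under 9 other settings (orange ticks). Hsd11b2 and Fkbp4 keep a narrow range, Hsd11b1 runs from 0.76 to 1.45, and H6pd is the one gene whose ticks lie on both sides of 0.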

How the data were processed

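The deposited table holds 1 intensity per probe set and array on a linear scale (1 to 34328), which the authors made with MAS5, per the submitters' processing notes, with no version. Their scaling between arrays is not stated and no detection calls were used. Values were used as log2(intensity + 55.26), the 20th percentile of all values. Before testing, 57 Affymetrix controls were dropped, as was any probe set dimmer on average than the 40th percentile (log2 7.40). Gene symbols came from the platform annotation, and all 13 probe sets of the 10 genes kept their symbol when matched by Entrez identifier to the RefSeq table of GRCr8. The test was limma (version 3.58.1, R 4.3.3) on 8 high-dosed and 3 control animals, with an intensity trend, two-sided, adjusted over all genes (or all probe sets) tested, after the script was tested on simulated data. Nothing in the labels says more about how animals were kept, so p-values measure the spread between these animals, and the number of arrays limits the precision. The animals were picked for arrays by a liver extract score and clinical chemistry. Their spread and the gap between the groups may therefore differ from those of animals not picked, which was not tested. Named were all 10 genes, up to 4 called genes of each pathway list by adjusted p, further genes fixed by name (Zbtb16, Hsp90aa1 and Srd5a1 among them had no probe set with a single symbol here), and genes said to be named after their values were seen. The genes, lists and marker sets were chosen with earlier results of these data known. The 20 alternatives were other pseudocounts, filters and scalings, no variance trend, leaving out each animal, leaving out high-dosed animals 8, 10 and 11, and the animal number (8 and above) as a covariate.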

Additional observations from a re-analysis of the deposited data

Results flagged for a closer look

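Of 45 sets of high-dosed values, for the genes and probe sets named, 1 had an animal far from the others. Ppargc1a in high-dosed animal 4 had an intensity of 489 against 344 in the next animal, a gap of 0.582 of the group's range on the log2 scale. Chance flags about 1 in 20 such groups.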

How the results depend on the processing

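Of 200 values of the 10 genes (10 genes under 20 settings), 194 kept their direction and their side of the threshold, 2 lost the call, 3 gained it and 1 turned sign, namely H6pd, which ran from -0.062 to 0.017 with 1 animal left out and turned without control 1. The dimmer probe set of Dusp1 turned sign too (-0.060). Of 640 values of 32 other genes, 59 lost the call and 10 turned sign, all of Pck1 and Tdo2, which lie near 0 and were not called. Pck1 was -0.0064 after median centring and ran from -0.025 to 0.050 with 1 animal left out. Tdo2 was -0.019 after median centring, -0.0071 without high-dosed animals 8, 10 and 11, and ran from -0.090 to 0.082 with 1 animal left out. The dimmer probe set of Lyve1 turned sign as well (0.21). The 847 genes called higher became 473 after median centring and 506 without high-dosed animals 8, 10 and 11. Without 1 animal they ran from 246 (without control 1) to 1081, and the 294 called lower from 79 to 325; without control 2 the lower calls were 145, and without control 9 the higher ones 548. The cause was not tested. The correlations of the 4 pairs of genes kept their sign under the other settings. None was called under another pseudocount or scaling, and those without 2 animals were not adjusted. No paired analysis was possible because the groups share a single animal number. With 3 controls, 1 of them decides many calls near the threshold, and fold changes of dim probe sets, such as the dimmer of Fkbp5, come out too small.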
